A study of Mus musculus with 15 samples.

Results

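Mitochondrial DNA encodes only a small part of the respiratory chain, together with the rRNAs and tRNAs of its own ribosome, and every factor that copies, transcribes and protects it is encoded in the nucleus. The 10 such nuclear genes followed here in mouse kidney each have a role in that work or in its control, and were taken up with earlier results of these data known. All 10 were found among the 13933 genes with an annotated transcript in every mouse, and all 10 passed the filter of at least 1 FPKM (fragments scaled to transcript length and library depth) in at least 5 mice that left 12366 genes to test. In the kidney the proximal tubule and the thick ascending limb are dense in mitochondria, since salt and solute transport there runs on oxidative phosphorylation.

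The 10 genes hold successive roles. POLRMT is the RNA polymerase of mitochondria, TFB2M melts the promoter so that POLRMT can start, and TFAM bends and packages the DNA. LRPPRC and SLIRP form a complex that keeps mitochondrial mRNAs stable and polyadenylated, and PNPT1 is the polynucleotide phosphorylase of mitochondrial RNA decay. POLG is the DNA polymerase and TWNK the helicase of replication. PGC-1α (Ppargc1a) is a coactivator of nuclear genes for mitochondria, and ERRα (Esrra) is an orphan nuclear receptor through which it acts.

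Kidneys of 15 male wild-type C57BL/6 mice, bought at 8 weeks of age, had been sequenced, 5 in each group, with 1 library per mouse. Control mice carried a pump with saline, and Ang II mice a pump with angiotensin II (Ang II, a vasoconstrictor peptide used to raise blood pressure) at 500 ng/kg/min, both for 28 days. Ang II + QDG mice received the same infusion and, by the intragastric route, Qingda granule (QDG), an extract of 4 herbs, at 1.145 g/kg/day, where the other mice received water. No group received QDG without Ang II, so the design holds no value for QDG alone. Ang II + QDG mice were compared with Ang II mice, written QDG vs. Ang II, and with Control mice, written QDG vs. Control. The same 5 Ang II mice stand in Ang II vs. Control as well as in QDG vs. Ang II, so that their own spread enters each with opposite sign. Kidney tissue was measured, in which fewer cells of a type and less RNA per cell cannot be told apart. The study's methods do not say which part of the kidney was taken for RNA.

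The depth implied by the values was 68904000 to 81368000 reads or fragments per mouse, and the 10 genes took from 471 (Slirp) to 15576 (Esrra) implied reads in a mouse. Of the 13 marker lists examined, those of the nephron segments were present in every mouse. Podxl of podocytes was at 44.2 to 52.6 FPKM in Control, 52.3 to 70.3 in Ang II, with 56.1 to 73.1 in Ang II + QDG, and was called higher in Ang II vs. Control, as were Slc26a4 of intercalated cells and Pdgfrb of mural cells. The calls of Podxl, Slc26a4 and Pdgfrb were lost in 5, 7 and 11 of the 15 fits that left out 1 mouse, with adjusted p up to 0.0694, 0.0723 and 0.108. Under 9 other settings they were called in 7, 7 and 3, with adjusted p up to 0.121, 0.0921 and 0.0813 in limma. Summed over 3 podocyte markers, the level was 54.1 to 65.6 FPKM in Control, 67.4 to 82.4 in Ang II, with 72.2 to 88.8 in Ang II + QDG, above Control in each without overlap. For the 3 intercalated cell markers found of 4 (Slc4a1 was not listed) the sums were 50.6 to 54.3, 58.4 to 82.3 and 62.2 to 84.3 FPKM. Proximal tubule markers summed to 4801 to 16402 FPKM in Control, 4975 to 6997 in Ang II, with 7168 to 11885 in Ang II + QDG, without overlap between the last pair of groups, while the single markers went both ways in QDG vs. Ang II (2 of 6 higher and 4 lower, median log2 fold change −0.050, 0 called in limma and 2 at an unadjusted p under 0.05). The largest difference among them was that of Kap, named after its values were seen, at 1557 to 4111 FPKM in Ang II and 3730.5 to 9151 in Ang II + QDG. The thick ascending limb markers were higher in 4 of 4 in QDG vs. Ang II (median 0.33), 0 of them called in limma and 4 at an unadjusted p under 0.05. Of all genes tested, 1.81% were called in that comparison and 16.4% reached that unadjusted p. Fibroblast and mural markers summed to 12.7 to 30.0, 25.6 to 59.6 and 33.8 to 40.5 FPKM, and erythroid markers to 545 to 1362, 1115 to 1943 and 1557 to 2818. The 5 erythroid markers were higher in 5 of 5 in every comparison, and Hba-a1, a hemoglobin alpha chain with a near-identical copy in Hba-a2, was called in QDG vs. Control (log2 fold change 1.17, adjusted p = 0.0257 in limma), a call lost in 5 of the 15 fits without 1 mouse, with adjusted p up to 0.082. The summed levels of thick ascending limb, distal convoluted tubule, principal cell, endothelium, leukocyte, hepatocyte, adrenal cortex and fat markers overlapped between groups in each comparison, and Cd3e, Cd79a, Cyp11b1, Cyp11b2 and Hsd3b1 were not listed. The part of cell composition in the results that follow was not tested.

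Tfb2m and Esrra carry the differences described here, and the sequences before their start sites are shown for that reason. These are the 250 bases upstream of the RefSeq start site on GRCm38.p6, both on the minus strand, Esrra at chr19:6921809-6922058 and Tfb2m at chr1:179546277-179546526, written 5′ to 3′ with the letters CATGCGC in capitals where they occur. GENCODE places the start of Esrra at the same base and that of Tfb2m 9 bases away.
Esrra upstream: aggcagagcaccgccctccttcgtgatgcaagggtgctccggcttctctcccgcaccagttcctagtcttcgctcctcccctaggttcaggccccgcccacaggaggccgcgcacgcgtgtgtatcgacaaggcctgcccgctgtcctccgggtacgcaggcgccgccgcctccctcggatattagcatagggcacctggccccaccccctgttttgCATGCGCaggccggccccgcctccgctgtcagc
Tfb2m upstream: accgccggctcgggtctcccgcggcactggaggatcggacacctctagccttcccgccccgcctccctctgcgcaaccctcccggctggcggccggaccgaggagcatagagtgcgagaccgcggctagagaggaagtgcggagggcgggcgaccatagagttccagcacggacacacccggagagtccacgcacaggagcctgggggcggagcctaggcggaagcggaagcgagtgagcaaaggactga

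Promoter windows of 300 bases, from 250 before to 50 after the start, were found for all 10 genes, with 11 windows since Twnk has a pair. The ETS/GABP letters CCGGAAG were in 5 of the 11 windows (Polg, Polrmt, Slirp, Tfam and Twnk) on either strand, against 8.86% of all 32851 RefSeq windows. The NRF1 motif, GCGCA and GCGC with any base between them, was in the window of Polrmt and in 4.60% of all windows, and the YY1 letters AAGATGGC in that of Slirp and in 2.75% of all. None of the 11 windows held the ERR letters TNAAGGTCA, which 1.28% of all windows held. The shorter letters CATGCGC, which overlap the end of many NRF1 sites and were searched only after these sequences had been read, were in 4 windows (Esrra, Lrpprc, Polrmt and Tfb2m) and in 3.91% of all. These 4 stretches are shown so that the matches can be compared, with CATGCGC or its complement in reverse, GCGCATG, in capitals.
Esrra, chr19:6921824-6921852: cccctgttttgCATGCGCaggccggcccc
Lrpprc, chr17:84790830-84790858: agcccttgcgcGCGCATGggcggagccga
Polrmt, chr10:79746697-79746725: agagtatttctGCGCATGctctcttgccg
Tfb2m, chr1:179546245-179546273: taggtcgttcgCATGCGCcattcgtaatg
The match began 33 bases before the start site in Esrra, 61 before in Lrpprc and 133 before in Polrmt. In Tfb2m it began at base 15 of the transcript. A match of letters is a description of the sequence, and binding was not measured.

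In Ang II vs. Control, 2 of the 10 genes passed an adjusted p under 0.05 in limma, Esrra higher and Tfb2m lower, beside 5.94% of all genes tested (4.95% higher and 0.995% lower). The groups did not overlap for the same 2 genes, against 7.92% of all genes (6.49% higher and 1.42% lower), and Slirp alone joined them at an unadjusted p under 0.05, which 22.7% of all genes reached. The study set a threshold on transcripts, a fold change of at least 2 with an unadjusted p under 0.05. Applied here to the summed genes, it was met by none of the 10 and by 1.04% of all genes. In QDG vs. Ang II none of the 10 passed the adjusted threshold in limma, beside 1.81% of all genes, while 2 reached an unadjusted p under 0.05 (16.4% of all) and these 2, again Esrra and Tfb2m, did not overlap between groups (5% of all, 1.56% higher and 3.44% lower). In QDG vs. Control none passed in limma (0.129% of all), Esrra and Pnpt1 reached an unadjusted p under 0.05 (14.4% of all) and Esrra did not overlap (3.64% of all, 2.78% higher). None of the 10 summed genes met that threshold in these 2 comparisons, where 0.817% and 0.728% of all genes did.

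**Figure D1:**
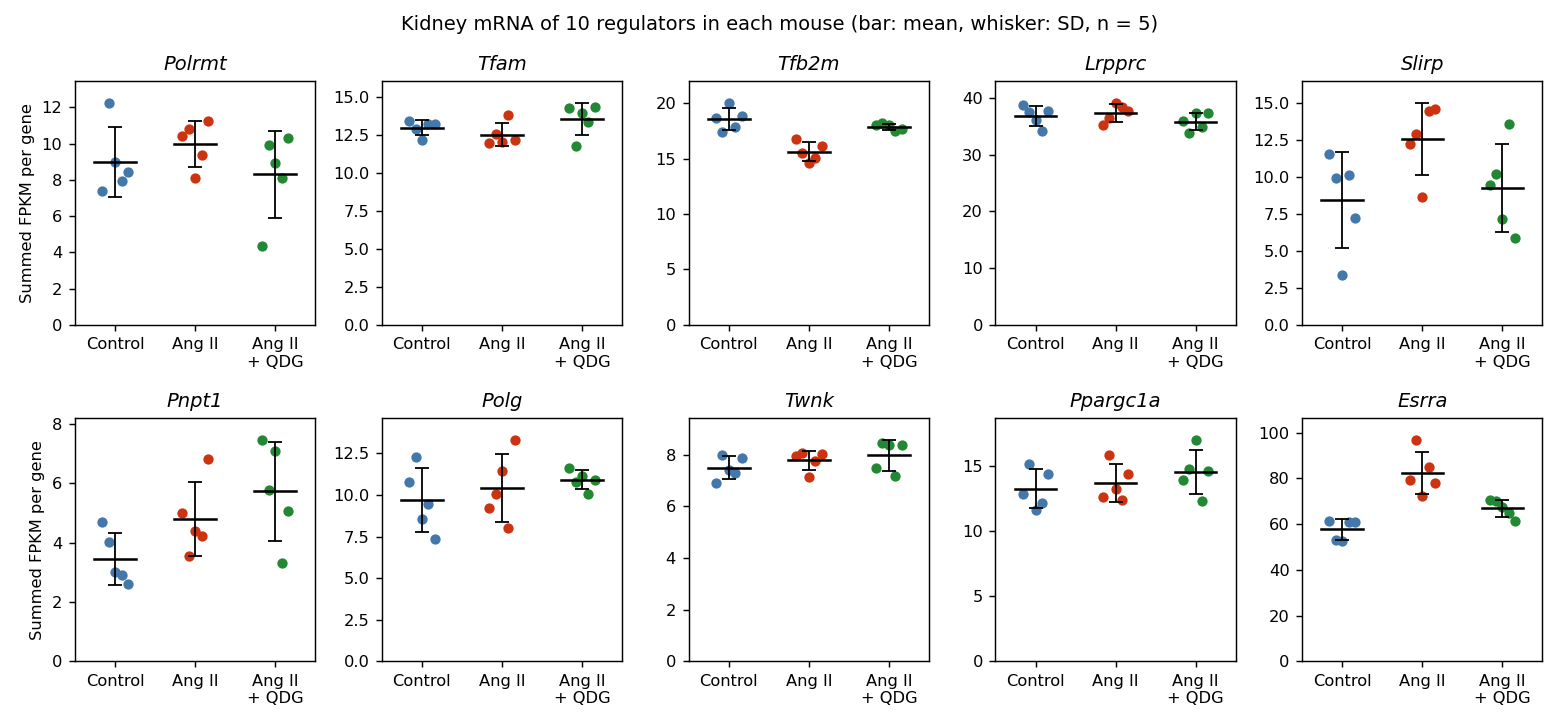
Summed FPKM of each of the 10 genes in every mouse (points), with the group mean (bar) and SD (whisker, n = 5); each axis starts at 0. Esrra lies between 72.3 and 96.8 in the Ang II mice, above every other mouse, and Tfb2m between 14.6 and 16.8, below every other mouse.

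Among the transcription factors of mitochondrial DNA, Tfb2m (ENSMUSG00000026492, chromosome 1, 179528055 to 179546267 on GRCm38, minus strand) was 18.7, 17.4, 20.002, 17.9 and 18.8 FPKM in the Control mice. It was 16.8, 15.5, 14.6, 15.04 and 16.1 FPKM in the Ang II mice and 18.0, 18.2, 18.1, 17.5 and 17.6 FPKM in the Ang II + QDG mice. All 5 Ang II mice lay below all others, and the Ang II + QDG mice fell within the Control range. Tfb2m fell in Ang II vs. Control, with a log2 fold change of −0.23 (standard error 0.052, 95% confidence interval −0.35 to −0.12, adjusted p = 0.0219 in limma), from 18.5 ± 1.01 to 15.6 ± 0.867 FPKM (SD, n = 5). In QDG vs. Ang II the log2 fold change was 0.19 (standard error 0.052, interval 0.073 to 0.30), with 5 of 5 mice higher, but the adjusted p of 0.0841 missed the threshold. Against Control, the Ang II + QDG mice had a log2 fold change of −0.049, with an interval of −0.16 to 0.064. The Ang II + QDG group was the narrowest, with an SD of 0.282 FPKM. Without Control replicate 1 or 3 the fall was of similar size (log2 fold changes of −0.23 and −0.21), while its adjusted p of 0.0511 and 0.0564 missed the threshold.

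Tfam (ENSMUSG00000003923, chromosome 10, 71225464 to 71238280, minus strand) did not separate the groups. Its level was 13.4, 12.9, 12.1, 13.2 and 13.2 FPKM in Control, 11.97, 12.5, 12.01, 13.8 and 12.1 in Ang II, and 14.3, 11.8, 13.9, 13.3 and 14.3 in Ang II + QDG. The interval of the log2 fold change in Ang II vs. Control was −0.19 to 0.084, or a fold of 0.879 to 1.06. In QDG vs. Ang II it was −0.030 to 0.24.

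Polrmt (ENSMUSG00000020329, chromosome 10, 79736123 to 79746581, minus strand) had 7.40, 12.2, 8.96, 7.91 and 8.44 FPKM in Control and 10.4, 10.8, 8.08, 9.37 and 11.2 in Ang II. The Ang II + QDG mice had 4.32, 9.93, 8.91, 8.10 and 10.3 FPKM, so that 1 mouse stood below all others. In that mouse, 4.70 FPKM lay in a nonsense-mediated decay transcript (ENSMUST00000162694) that the Control files do not list and that therefore did not enter the sum; with it and another transcript listed only outside Control counted, the mouse had 9.37 FPKM. The log2 fold change of Polrmt was 0.15 (interval −0.25 to 0.55) in Ang II vs. Control and −0.28 (−0.68 to 0.12) in QDG vs. Ang II. The sign of the former turned to −0.11 when only protein-coding transcripts were summed, and that of the latter to 0.11. The latter was −0.088 without the low mouse and −0.073 with the transcripts listed in any file, when the mean was 10.46 FPKM in Ang II, with 9.87 in Ang II + QDG.

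Of the RNA stability factors, Lrpprc (ENSMUSG00000024120, chromosome 17, 84705247 to 84790789, minus strand) was the steadiest gene of the 10, with its highest mouse at 1.16 times its lowest. It was 38.7, 37.6, 36.1, 34.2 and 37.8 FPKM in Control, 35.3, 36.4, 39.1, 38.4 and 37.65 in Ang II, and 36.0, 33.8, 37.4, 34.9 and 37.4 in Ang II + QDG. Its log2 fold change in Ang II vs. Control had an interval of −0.087 to 0.13, and in QDG vs. Ang II one of −0.16 to 0.048. Its partner Slirp varied the most, with the highest mouse at 4.30 times the lowest.

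Slirp (ENSMUSG00000021040, chromosome 12, 87443896 to 87452206, plus strand) was 11.52, 9.96, 3.40, 10.1 and 7.22 FPKM in Control. The Ang II mice had 12.2, 12.9, 8.65, 14.5 and 14.6 FPKM, of which 4 of 5 lay above every Control mouse. In Ang II + QDG the values were 9.46, 10.2, 7.17, 13.6 and 5.86 FPKM. The log2 fold change in Ang II vs. Control was 0.59 (standard error 0.27, interval 0.010 to 1.17) with an adjusted p of 0.211 in limma, and in QDG vs. Ang II it was −0.43 (−1.02 to 0.15). The former interval excludes 0, but the difference did not pass after adjustment over all genes, and it was 0.34 (adjusted p = 0.413) without the Control mouse at 3.40 FPKM. Counted over whole genes, introns included, Slirp shares 3132 bases with Snw1 (22.4 FPKM on average) and 122 with Alkbh1 on the other strand. The library kit named in the labels marks no strand, so reads in the overlap cannot be told apart. The same holds for 780 bases that Twnk shares with Mrpl43 (31.3 FPKM), 4034 that Polg shares with Fanci, and 73 that Esrra shares with Trmt112 (19.1 FPKM). Tfb2m likewise shares 519 bases with the pseudogene Gm15480, Lrpprc 3831 with AC165360.1 and Ppargc1a 1931 with Gm42613. On its own strand Ppargc1a also overlaps Gm42614, Gm42615 and Gm43605, and Esrra overlaps Mir6990. Apart from Mrpl43 and Trmt112, these genes were not listed for every mouse. How much of each overlap lies in exons was not counted.

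Pnpt1 (ENSMUSG00000020464, chromosome 11, 29130744 to 29161828, plus strand) was the lowest of the 10 genes. It had 4.69, 4.04, 3.03, 2.90 and 2.62 FPKM in Control, 5.01, 3.56, 4.40, 4.22 and 6.82 in Ang II, and 7.46, 5.76, 7.10, 3.32 and 5.06 in Ang II + QDG. The groups overlapped, though 4 of 5 Ang II + QDG mice lay above all Control mice, and the log2 fold change in QDG vs. Control was 0.58 (standard error 0.20, interval 0.16 to 1.00, adjusted p = 0.202 in limma). The sum covered several transcripts. Its protein-coding transcript (ENSMUST00000020756) was 2.15 to 3.79 FPKM in Control, 2.03 to 2.87 in Ang II and 2.17 to 5.73 in Ang II + QDG, while a processed transcript with no reading frame (ENSMUST00000154924) was 0.168 to 1.88, 1.37 to 4.27 and 0.720 to 2.89. The protein-coding one held a median of 90.4% of the gene's FPKM in Control, 51.7% in Ang II, with 67.0% in Ang II + QDG. Between Ang II and Control the processed transcript had a log2 fold change of 1.07 (adjusted p = 0.0953 in limma over 28812 transcripts) and the protein-coding one −0.15 (adjusted p = 0.762). In QDG vs. Control these were 0.85 (adjusted p = 0.368 in limma) and 0.30 (adjusted p = 0.639). None passed the threshold, and the difference between the transcripts was not tested.

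Both replication genes showed no change past the threshold. Polg (ENSMUSG00000039176, chromosome 7, 79446231 to 79466362, minus strand) was 10.7, 12.3, 8.53, 9.45 and 7.33 FPKM in Control, 9.21, 10.1, 11.4, 7.99 and 13.3 in Ang II and 11.6, 10.8, 11.2, 10.1 and 10.9 in Ang II + QDG. Its intervals were −0.19 to 0.38 in Ang II vs. Control and −0.21 to 0.37 in QDG vs. Ang II. Most of the Polg sum came from transcripts with no full reading frame: the 1 protein-coding transcript of the 8 listed held a median of 15.97% in Control, 43.8% in Ang II, with 20.1% in Ang II + QDG. That transcript was 0.951 to 3.79 FPKM in Control, 1.503 to 4.59 in Ang II and 1.52 to 2.60 in Ang II + QDG, and its log2 fold change was 0.41 with an adjusted p of 0.509 in Ang II vs. Control and −0.35 with 0.677 in QDG vs. Ang II, by limma. Twnk (ENSMUSG00000025209, chromosome 19, 45005663 to 45012762, plus strand) was 6.89, 7.99, 7.40, 7.30 and 7.88 FPKM in Control, 7.94, 8.08, 7.16, 7.75 and 8.02 in Ang II and 7.50, 8.47, 8.38, 7.18 and 8.36 in Ang II + QDG. Its intervals were −0.090 to 0.19 and −0.11 to 0.17 in the same order, or folds of 0.94 to 1.14 and 0.926 to 1.12.

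Among the regulators of mitochondrial biogenesis, Esrra (ENSMUSG00000024955, chromosome 19, 6910977 to 6921813, minus strand) was the most abundant of the 10 genes. It was 61.4, 53.1, 52.5, 61.0 and 61.1 FPKM in Control, 79.3, 96.8, 72.3, 84.9 and 78.2 in Ang II, and 70.4, 70.3, 67.4, 64.9 and 61.5 in Ang II + QDG. All 5 Ang II mice lay above all others, and the Ang II + QDG mice fell between, the lowest of them (61.5) just above the highest Control mouse (61.4). Esrra rose in Ang II vs. Control, with a log2 fold change of 0.50 (standard error 0.077, interval 0.33 to 0.66, adjusted p = 0.00631 in limma), from 57.8 ± 4.58 to 82.3 ± 9.27 FPKM (SD, n = 5). On this scale the change was 1.41-fold (1.26 to 1.59). In QDG vs. Ang II the log2 fold change was −0.29 (standard error 0.077, interval −0.46 to −0.12), lower in 5 of 5 mice, with an adjusted p of 0.0709 that missed the threshold. The mean of the Ang II + QDG group, 66.9 ± 3.78 FPKM (SD, n = 5), stayed above that of Control by a log2 fold change of 0.21 (interval 0.043 to 0.37, adjusted p = 0.24). With the most abundant transcript alone (ENSMUST00000025906) the change in Ang II vs. Control was 0.45 with an adjusted p of 0.087. That transcript held 42.0 to 59.2 FPKM in Control, 47.5 to 82.3 in Ang II and 58.6 to 66.8 in Ang II + QDG, and the groups overlapped. In QDG vs. Ang II its log2 fold change was −0.15 (adjusted p = 0.728 in limma over 28812 transcripts). The lowest Ang II value belonged to the mouse in which a shorter protein-coding transcript, at 0 in 11 of the 15 mice, was listed at 22.6 FPKM.

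Ppargc1a (ENSMUSG00000029167, chromosome 5, 51454250 to 51567726, minus strand), whose product works through ERRα, did not separate the groups. It was 12.9, 15.2, 11.7, 12.2 and 14.4 FPKM in Control, 12.6, 15.9, 13.3, 12.4 and 14.4 in Ang II and 13.9, 14.8, 17.0, 12.3 and 14.6 in Ang II + QDG. The interval of its log2 fold change was −0.16 to 0.25 in Ang II vs. Control and −0.13 to 0.28 in QDG vs. Ang II. An increase of the size seen in Esrra lay outside the former interval. Whether the change of Esrra differed from that of Ppargc1a was not tested.

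**Figure D2:**
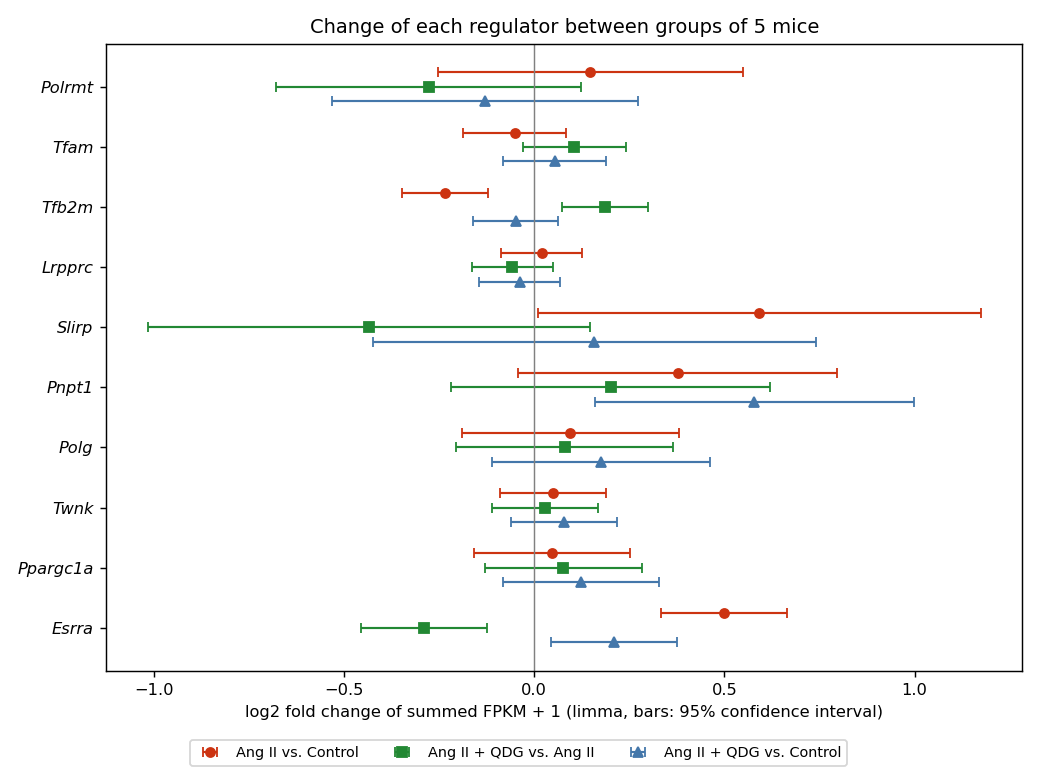
Log2 fold change of each gene in 3 comparisons (points) with 95% confidence intervals from limma (bars); the line at 0 marks no difference. In Ang II vs. Control the intervals of Tfb2m (−0.35 to −0.12), Esrra (0.33 to 0.66) and Slirp (0.010 to 1.17) exclude 0, and those of Polrmt, Slirp and Pnpt1 are the widest.

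Of the 18 transcripts of these genes that passed the filter, none was called in limma in Ang II vs. Control, QDG vs. Ang II or QDG vs. Control, while 7, 4 and 2 reached an unadjusted p under 0.05. Among all 28812 transcripts tested, 0.691, 0.0972 and 0.0243% were called in these comparisons and 15.9, 11.3 and 10% reached an unadjusted p under 0.05. A fold change of at least 2 at that p was met by 2, 1 and 0 of the 18, beside 2.88, 2.24 and 2.02% of all transcripts. These were the processed transcript of Pnpt1 in Ang II vs. Control and a retained-intron transcript of Polrmt (ENSMUST00000161765) in Ang II vs. Control and QDG vs. Ang II. The latter was 0.0152 to 1.74 FPKM in Control, 0.368 to 5.25 in Ang II, with 0.00306 to 1.103 in Ang II + QDG, and the groups overlapped. Its log2 fold changes were 1.04 (adjusted p = 0.258 in limma) in Ang II vs. Control and −1.06 (adjusted p = 0.367) in QDG vs. Ang II, which share the Ang II mice. In the Control mice the order of mean levels, per length, was Esrra (57.8 FPKM), Lrpprc (36.9), Tfb2m (18.5), Ppargc1a (13.3), Tfam (12.97), Polg (9.67), Polrmt (8.99), Slirp (8.44), Twnk (7.49) and Pnpt1 (3.46). Esrra exceeded Lrpprc, Lrpprc exceeded Tfb2m and Twnk exceeded Pnpt1 in 15 of 15 mice. Tfb2m exceeded Ppargc1a, and Tfam exceeded Polg, in 14 of 15. The other neighbours did not differ beyond their spread in Control, where Ppargc1a was above Tfam in 2 of 5 mice, and Polg above Polrmt, Polrmt above Slirp and Slirp above Twnk in 3 of 5 each. The place of Slirp was not the same in the other groups. In Ang II its mean of 12.6 FPKM was above that of Polrmt and Twnk, and it exceeded each of them in 5 of 5 mice. In Ang II + QDG, Slirp was above Twnk in 3 of 5 mice, and Polg exceeded Polrmt in 5 of 5.

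The RNA that these factors make and keep was measured as the share of annotated FPKM held by 13 mitochondrially encoded (mt-) genes listed for every mouse. It was 22.9, 20.7, 21.98, 21.7 and 21.8% in Control, 18.1, 17.4, 17.5, 17.6 and 17.8% in Ang II and 19.1, 19.0, 21.9, 22.2 and 19.9% in Ang II + QDG. All 5 Ang II mice lay below all others. The mean was 21.8 ± 0.804% in Control, 17.7 ± 0.268% in Ang II, with 20.4 ± 1.54% in Ang II + QDG (SD, n = 5). The share fell by 4.13 percentage points in Ang II vs. Control and was 2.73 points higher in QDG vs. Ang II, each with p = 0.00794 by the two-sided exact permutation test, the smallest that 5 against 5 mice allow, and 0.0159 after adjustment over 12 comparisons. The difference of −1.40 points between Ang II + QDG and Control had an exact permutation p of 0.119 (adjusted 0.159). A share is relative, so less mt- RNA and more nuclear RNA cannot be told apart by it. The summed proximal tubule markers also lay higher in QDG vs. Ang II without overlap, but overlapped between Ang II and Control, 4 of those 6 markers were lower in QDG vs. Ang II, and 4 of 4 thick ascending limb markers were higher there. In Ang II vs. Control 3 of the 6 proximal tubule markers and 3 of the 4 thick ascending limb markers were lower (median log2 fold changes 0.011 and −0.13), with 0 called in limma and 4 and 0 at an unadjusted p under 0.05. Of all genes tested, 5.94% were called there and 22.7% reached that unadjusted p. The part of these cell types in the share was not tested.

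**Figure D3:**
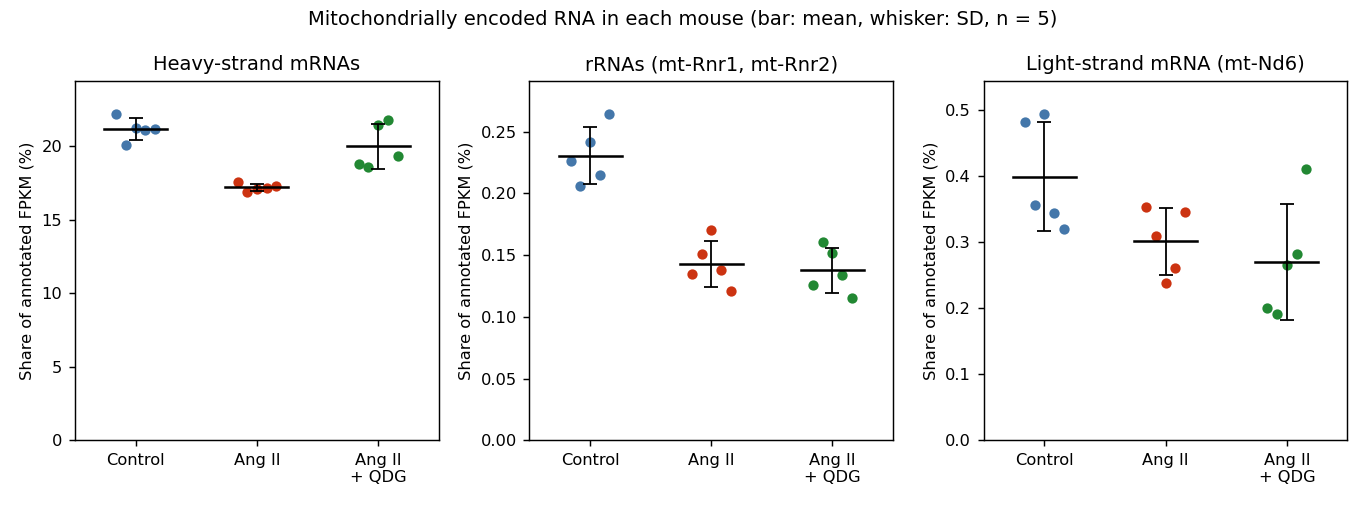
Share of annotated FPKM in each mouse (points), in percent, for the heavy-strand mRNAs, the 2 rRNAs and the light-strand mRNA of mitochondria, with the group mean (bar) and SD (whisker, n = 5); each axis starts at 0. Heavy-strand mRNA is lowest in Ang II (16.9 to 17.6%), while rRNA is low in both groups given Ang II (0.115 to 0.170%) and between 0.206 and 0.265% in Control.

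The mt- RNA was also measured by class. The heavy strand, which carries the rRNAs and all mRNAs but 1, is transcribed as a long precursor that is then cut. Heavy-strand mRNAs held 21.2 ± 0.746% in Control, 17.2 ± 0.248% in Ang II, with 19.99 ± 1.52% in Ang II + QDG (SD, n = 5). They make up nearly all of the whole share (means of 21.8, 17.7 and 20.4%). Their differences between groups were therefore bound to follow those of the whole share, and the tests of both are not independent. The rRNA depletion given in the labels, and a poly(A) selection that only the study's methods describe, both act on the level of rRNA in a library, and their part in it was not tested. The rRNAs mt-Rnr1 and mt-Rnr2 held 0.231 ± 0.0231%, 0.143 ± 0.0184% and 0.138 ± 0.0185% (SD, n = 5). They were lower than Control in both Ang II and Ang II + QDG without overlap (exact permutation p = 0.00794, adjusted 0.0159, each), and the latter pair differed by −0.0054 points (exact permutation p = 0.651). Light-strand mRNA, mt-Nd6, held 0.319 to 0.494% in Control, 0.238 to 0.354% in Ang II and 0.191 to 0.411% in Ang II + QDG, with adjusted exact permutation p of 0.0952, 0.537 and 0.0952 for Ang II vs. Control, QDG vs. Ang II and QDG vs. Control. Since the library kit marks no strand, reads of mt-Nd6 and of heavy-strand precursor from the same stretch cannot be told apart.

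By gene, mt-Co1, mt-Co2, mt-Co3, mt-Cytb and mt-Nd2 of 8 heavy-strand mRNAs tested fell in Ang II vs. Control, along with both rRNAs, the call of mt-Nd2 being lost without any 1 of 7 mice (adjusted p up to 0.0793). Quantile normalization, which fixes values by rank, ended all 5 of these mRNA calls (0 for mt-Co1 and mt-Cytb, and −0.034 to −0.023 for the others). The largest of these falls among the mRNAs was that of mt-Cytb, the cytochrome b of complex III, at 17442 to 20124 FPKM in Control, 13721 to 14111 in Ang II, with 16712 to 20289 in Ang II + QDG. Its log2 fold change was −0.40 (adjusted p = 0.00497 in limma) in Ang II vs. Control and 0.38 (adjusted p = 0.0132) in QDG vs. Ang II. The other gene called higher in the latter was mt-Co2 (log2 fold change 0.27, adjusted p = 0.0458), a call lost when any 1 of 14 of the 15 mice was left out, with adjusted p up to 0.109. In Ang II vs. Control the log2 fold change was −0.74 for mt-Rnr1 and −0.76 for mt-Rnr2 (adjusted p = 0.00497 and 0.00631). For mt-Nd1, mt-Nd3, mt-Nd5 and mt-Nd6 the log2 fold changes of −0.27, −0.19, −2.79 and −0.46 did not pass, the size of that of mt-Nd5 resting on 1 Ang II mouse listed at 0.256 FPKM. The other 4 Ang II mice had 4763 to 5464 FPKM of mt-Nd5, below all Control mice (6194 to 7035), with 4637 to 6241 in Ang II + QDG. mt-Nd4 was under 1 FPKM in 14 mice and mt-Atp8 in 12, mt-Atp6 was listed in the Control files only, and mt-Nd4l was not listed. With only the 10 mt- genes at 1 FPKM or more in every mouse, the 2 differences in the whole share were of the same sign and on the same side of the threshold.

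Set beside this share mouse by mouse, the 5 mice with the lowest share, 17.4 to 18.1%, were the 5 with the lowest Tfb2m and the highest Esrra. Within the groups the order was not kept. The Ang II mouse with the lowest share (17.4%) had 15.5 FPKM of Tfb2m, above the 14.6 FPKM of the Ang II mouse at 17.5%. The former also had the highest Esrra of its group (96.8 FPKM) and the latter the lowest (72.3 FPKM). The Ang II + QDG mouse with the highest share (22.2%) had the lowest Tfb2m of its group (17.5 FPKM), and the one with the lowest share (19.0%) had the highest (18.2 FPKM). Among Control mice, the one with the lowest share (20.7%) also had the lowest Tfb2m (17.4 FPKM). Esrra was 64.9 and 67.4 FPKM in the Ang II + QDG mice with shares of 22.2 and 21.9%, above every Control mouse, whose shares were 20.7 to 22.9%. No correlation was computed, since the groups separate on the share and each holds 5 mice.

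**Figure D4:**
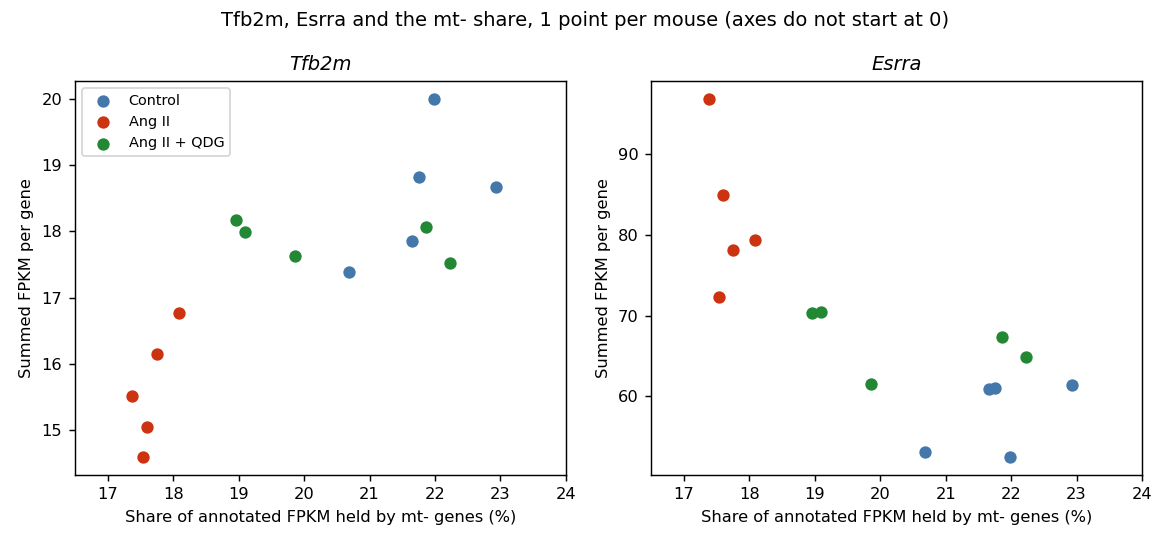
Summed FPKM of Tfb2m and Esrra against the share of annotated FPKM held by mt- genes in percent, with 1 point per mouse coloured by group; the axes do not start at 0. The 5 Ang II mice, with shares of 17.4 to 18.1%, lie apart from the other 10, and within the Ang II + QDG group (19.0 to 22.2%) Tfb2m spans only 17.5 to 18.2 FPKM.

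The 8 other tested genes of mitochondrial transcription gave 1 call in Ang II vs. Control, where 5.94% of all genes were called, and a median log2 fold change of 0.057, against 0.083 for all genes. The called gene was Mrpl12, a mitoribosomal protein that also binds POLRMT. Mrpl12 was 121 to 135 FPKM in Control, 143 to 161 in Ang II, with 109 to 136 in Ang II + QDG. It rose in Ang II vs. Control (log2 fold change 0.28, adjusted p = 0.0215 in limma) and fell in QDG vs. Ang II (−0.30, adjusted p = 0.0295), with no overlap in either. Leaving out Control replicate 1 or 3 took the former to an adjusted p of 0.0526 or 0.0514, and the latter was lost without any 1 of 7 mice, with adjusted p up to 0.0738. The values of Mrpl12 lie opposite to those of Tfb2m: highest in Ang II, where Tfb2m was lowest.

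Among 14 other genes of mitochondrial RNA stability and decay, Fastk (13.1 to 18.9 FPKM in Control and 19.1 to 24.5 in Ang II) and Tbrg4 (14.4 to 16.49 and 17.2 to 20.97), both of the FASTK family that binds mitochondrial RNA, rose in Ang II vs. Control. Their log2 fold changes were 0.44 (adjusted p = 0.0226 in limma) and 0.30 (adjusted p = 0.0408), beside a median of 0.037 for the list. Of 22 tested genes for processing and modification of mitochondrial RNA, only Mrm3, a methyltransferase of the large rRNA, was called (0.31, adjusted p = 0.0461; list median 0.021). Of 20 other genes for replication and upkeep of mitochondrial DNA, Rnaseh1, which removes RNA from RNA-DNA hybrids, and Slc25a4, the ADP/ATP carrier, rose by 0.41 (adjusted p = 0.027) and 0.31 (adjusted p = 0.0115) on the log2 scale. Slc25a4 kept its call without any 1 mouse. The calls of Fastk, Rnaseh1, Tbrg4 and Mrm3 were lost in 3, 5, 9 and 12 of the 15 fits that left out 1 mouse, with adjusted p up to 0.059, 0.0672, 0.0966 and 0.109. They were also lost in 4, 2, 5 and 6 of the 9 other settings, with adjusted p up to 0.702, 0.0772, 0.313 and 0.176.

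None of the 21 other biogenesis coactivators and transcription factors was called in limma in Ang II vs. Control, while 5 reached an unadjusted p under 0.05, where 22.7% of all genes did, and the median was 0.13. The smallest p values were those of Esrrg, the ERRγ receptor related to Esrra, at 0.815 to 5.41 FPKM in Control and 5.53 to 9.66 in Ang II (log2 fold change 0.94, adjusted p = 0.0646), and of the retinoid receptor Rxra (0.17, adjusted p = 0.149). None of 13 translation factors was called either, with 1 at an unadjusted p under 0.05 and a median of 0.082. Gfm2, which recycles mitochondrial ribosomes, was at a log2 fold change of 0.36 (adjusted p = 0.067), and the elongation factor Tsfm at 0.43 (adjusted p = 0.246). Of 18 other nuclear-encoded mitochondrial proteins, taken for comparison, Phb2, a prohibitin of the inner membrane, was called higher (log2 fold change 2.67, adjusted p = 0.0488), at 3.29 to 38.2 FPKM in Control and 59.5 to 78.6 in Ang II. That call was lost in 10 of the 15 fits without 1 mouse, with adjusted p up to 0.114, and in 8 of the 9 other settings, and the list's median was 0.087.

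In QDG vs. Ang II the same 7 lists gave 1 other call, the chaperonin Hspe1 (149 to 189 FPKM in Ang II, 105 to 159 in Ang II + QDG), which fell with a log2 fold change of −0.50 (adjusted p = 0.033 in limma). It was lost without any 1 of 8 mice, with adjusted p up to 0.0839. The list medians were 0.035 for transcription, −0.10 for RNA stability, −0.096 for RNA processing, 0.011 for replication, 0.0048 for biogenesis, −0.0053 for translation and −0.10 for the comparison proteins, against −0.018 for all genes. In QDG vs. Control no gene of the 7 lists was called in limma, and 1, 2, 2, 1, 4, 1 and 2 genes in the same order, of 8, 14, 22, 20, 21, 13 and 18 tested, reached an unadjusted p under 0.05, beside 14.4% of all genes.

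**Figure D5:**
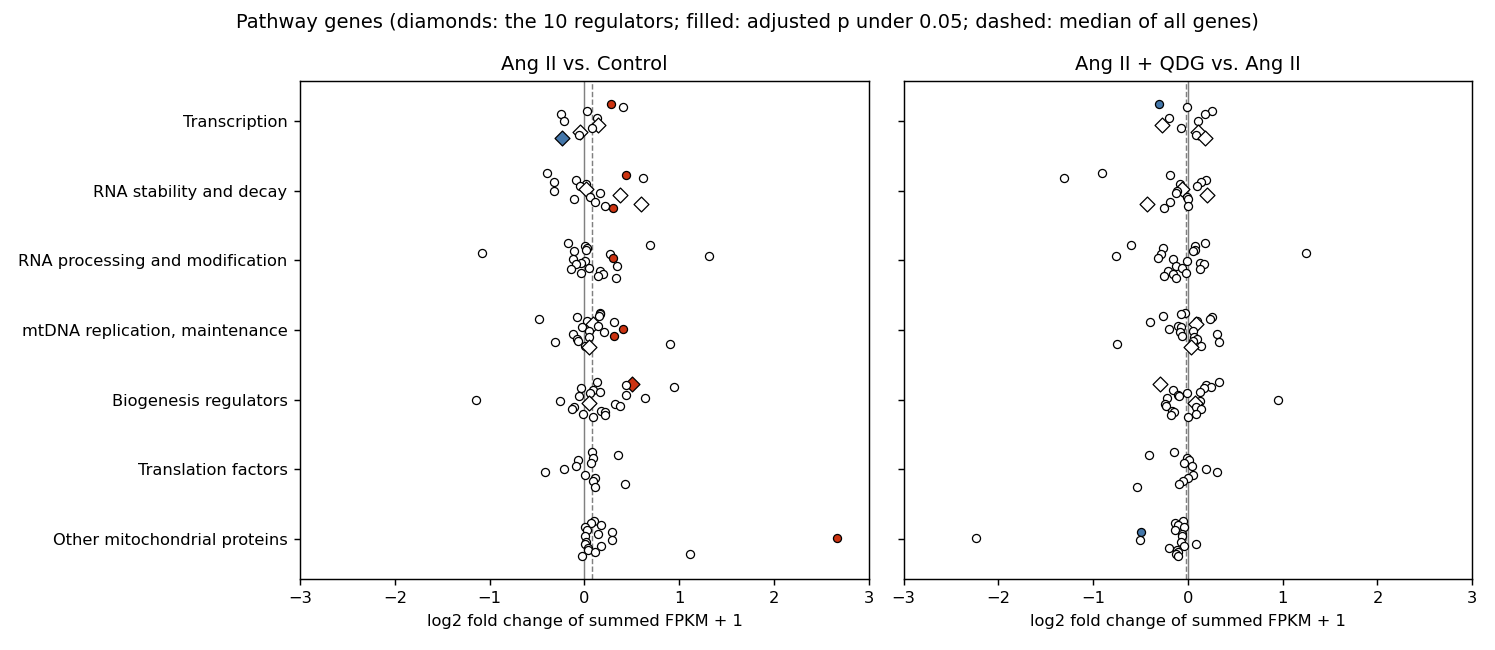
Log2 fold change of each tested gene in 7 pathway lists, in Ang II vs. Control (left) and QDG vs. Ang II (right); diamonds are the 10 genes, filled points have an adjusted p under 0.05 and the dashed line is the median of all genes. On the left Tfb2m (−0.23) is the only filled point below 0, and on the right the filled points are Mrpl12 (−0.30) and Hspe1 (−0.50).

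Genes whose values over the 15 mice lay nearest to those of each member were found by the root-mean-square difference of their standardised log2 values, where 0 is identity. For Tfb2m these were Lrrc19 (0.475) and the cholesterol transporter Abca1 (0.488), with a median of 1.45 over all genes. For Esrra they were Ndufaf8, an assembly factor of complex I (0.395), and the chromatin remodeller Chd3 (0.410), with a median of 1.27. Polrmt lay nearest to Sfxn5 (0.420) and Acacb, Tfam to E130311K13Rik, Lrpprc to Abhd5 and Prmt5, and Slirp to Gstm4 and Rpl22. Pnpt1 lay nearest to 9430091E24Rik and Zfp275, and Polg to Utp15 and Pde8a. Twnk was nearest to Syne1 (0.467) and Araf, and Ppargc1a to Syne1 and Snx29. None of the 10 was among the 2 nearest to another of them.

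Across all genes 735 were called in Ang II vs. Control (612 higher and 123 lower), 224 in QDG vs. Ang II (65 and 159) and 16 in QDG vs. Control (12 and 4). These splits depended on the scaling: with quantile normalization they were 227 and 266, 97 and 97, and 8 and 7, with values shifted to a common median 201 and 271, 72 and 112, and 8 and 12, and with values scaled to nuclear genes 485 and 131, 67 and 161, and 12 and 9. Esrra was called higher and Tfb2m lower in Ang II vs. Control under each of the 3 scalings. Under quantile normalization the adjusted p was 0.0122 for Esrra and 0.00869 for Tfb2m.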

How the data were processed

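Kidney RNA of 15 mice had been depleted of rRNA, made into libraries and sequenced in pairs on a HiSeq instrument, 1 library per mouse. The study's methods also describe a poly(A) selection, which the sample labels do not. The submitters' processing notes name mm10 and limma, and the aligner and annotation are not given in the sources used here. The authors deposited a value for each transcript of each mouse, with no unit named. The deposited values were taken as FPKM, since multiplying them by transcript length and by a constant for the mouse gave whole reads, within 0.1, for 98.7% to 98.9% of those under 200 reads.

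Transcripts were named by GENCODE M21 (GRCm38), and FPKM summed per gene over the 28863 annotated transcripts listed for all 15 mice. Control files list 41477 transcripts and the others 42310, and 11141 shared assembled transcripts without gene names were left out. They held 9.57% to 11.9% of the FPKM in Control, 11.3% to 11.7% in Ang II and 9.68% to 11.2% in Ang II + QDG. The latter pair of groups did not overlap, and whether these transcripts hold mt- RNA was not tested. Genes that reached 1 FPKM in 5 or more mice were tested with limma 3.58.1 (R 4.3.3) on log2(FPKM + 1), with a trend and 1 mean per group, over all 15 mice together, which leaves 12 residual degrees of freedom. Adjustment was by Benjamini-Hochberg over all 12366 genes, with a threshold of 0.05. Fold changes are on the log2(FPKM + 1) scale and understate those of low genes. Shares were compared by two-sided exact permutation tests (Python 3.11.15, numpy 2.4.6). On simulated data with 50 genes at each of 4 log2 changes in Ang II vs. Control, among 12366 genes, 39 of 50 were recovered at −1, 32 at −0.5, 26 at 0.5 and 38 at 1, with 6 false calls. The changed genes were drawn only from genes above a set mean level, so recovery of lower genes was not examined.

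The members, gene lists and marker lists were chosen with earlier results of these data known. Named genes are the 10 members, all mt- genes, every list gene past the threshold in Ang II vs. Control or QDG vs. Ang II, the 2 genes of smallest p in Ang II vs. Control for lists without a call, and the 2 nearest genes to each member. Marker lists are given as sums, with counts for some, Kap and Hba-a1 were named after their values were seen, and 1 podocyte marker, left out of its sum, and 1 of the genes nearest to Tfam are not reported here. Replicate numbers follow the order of the samples and pair nothing, the labels give no batch, and p-values measure the spread between these mice. Promoter sequences are from RefSeq on GRCm38.p6. The alternatives tried were another pseudocount (0.1), no filter, 3 other scalings, no trend, 3 other ways to sum transcripts, and leaving out each mouse.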

Additional observations from a re-analysis of the deposited data

How the results depend on the processing

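No paired analysis was possible because the labels carry no replicate numbers or litters. Under 9 alternatives Esrra kept its direction in Ang II vs. Control (log2 fold change 0.41 to 0.51) and was called in 8. Tfb2m was called in 9 of 9 (−0.32 to −0.23). The number of the 10 genes called there was 2, 1 with the most abundant transcript and 1 to 2 without 1 mouse (1 without Control replicate 1 or 3). Genes called in Ang II vs. Control, 735, became 472 with median scaling, 353 with the most abundant transcript, 408 with protein-coding transcripts and 338 to 797 without 1 mouse (338, 362, 403 and 349 without Control replicates 1 and 3 and Ang II replicates 2 and 5). Genes called in QDG vs. Ang II, 224, ranged from 53 to 250 without 1 mouse (53 and 65 without Ang II replicates 2 and 5, and 57 to 87 without Ang II + QDG replicates 2 to 5). In QDG vs. Control 16 became 6 and 6 with those transcript choices, 80 with transcripts in any file and 0 to 110 without 1 mouse, with 0 called by limma without Control replicate 4 (1492 at an unadjusted p under 0.05) and 110 without Control replicate 2, and a shift of over 1.5 times also without Control replicates 1 and 5, Ang II replicate 3 and Ang II + QDG replicates 1 to 3. The cause of these shifts was not tested.

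The members' differences whose signs turned had not passed the threshold. Under quantile normalization these were Lrpprc (−0.063 in Ang II vs. Control and 0.0071 in QDG vs. Ang II), Ppargc1a (−0.043) and Twnk (−0.040) in Ang II vs. Control, and Tfam (−0.015) and Twnk (−0.0049) in QDG vs. Control. Median scaling gave −0.072 for Lrpprc, −0.045 for Ppargc1a and −0.041 for Twnk in Ang II vs. Control and −0.025 for Tfam in QDG vs. Control. With the most abundant transcript, Ang II vs. Control gave −0.15 for Pnpt1, −0.32 for Polg and −0.29 for Polrmt, and Polrmt was 0.54 in QDG vs. Ang II and 0.25 in QDG vs. Control. With protein-coding transcripts, Pnpt1 was −0.15 and Polrmt −0.11 in Ang II vs. Control, Polg −0.35 and Polrmt 0.11 in QDG vs. Ang II, and Polrmt 0.00070 in QDG vs. Control, which was 0.14 with transcripts in any file. Leaving out 1 mouse gave Lrpprc −0.0064 to 0.039 and Ppargc1a −0.0047 to 0.093 in Ang II vs. Control, Polg −0.00087 to 0.17 in QDG vs. Ang II, and Polrmt −0.21 to 0.060 and Slirp −0.095 to 0.29 in QDG vs. Control.

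The mt- share differed by −4.04 to −3.80 points in Ang II vs. Control and 2.63 to 2.84 in QDG vs. Ang II under its 3 alternatives, called in each, and by −4.41 to −3.85 and 2.28 to 3.09 without 1 mouse. The rRNA share in QDG vs. Ang II was −0.0111 to 0.00135 points without 1 mouse. The light-strand share in QDG vs. Control was −0.164 to −0.105 and passed (adjusted p = 0.0272) without Ang II + QDG replicate 5. Quantile normalization, which fixes values by rank, ended the calls of all 5 heavy-strand mRNAs in Ang II vs. Control (0 for mt-Co1 and mt-Cytb, −0.034 for mt-Co2, −0.023 for mt-Co3 and −0.031 for mt-Nd2) and, in QDG vs. Ang II, that of mt-Cytb (0) and that of mt-Co2, whose sign turned (−0.010). The latter call was also lost with no filter, median scaling, no trend and protein-coding transcripts (adjusted p = 0.0565, 0.0729, 0.0702 and 0.0504). Of the list genes in Ang II vs. Control, Slc25a4 and Mrpl12 were called in 8 of 9 alternatives, Rnaseh1 in 7, Fastk in 5, Tbrg4 in 4, Mrm3 in 3 and Phb2 in 1.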

Other observations

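In each group of 5 mice, the 10 members and the mt- share with its 3 classes, 14 quantities in all, were examined for a highest or lowest mouse whose gap to its nearest neighbour was over 0.71 of the group's range. None of these 42 sets of values held one. Single transcripts and single mt- genes, such as mt-Nd5 and mt-Atp8, were not examined in this way. Several transcripts were listed near 0 in some mice and high in others of the same group. In the Esrra gene, a short protein-coding transcript (ENSMUST00000173635) was at 17.2 and 2.88 FPKM in 2 Control mice and 0 in the other 3, at 10.48 and 22.6 FPKM in 2 Ang II mice, and at 0 in every Ang II + QDG mouse. In Polg, a nonsense-mediated decay transcript (ENSMUST00000149444) was at 6.31, 6.78 and 8.18 FPKM in 1 mouse of each group and at 0 in the other 12. The main transcript of Polrmt (ENSMUST00000020580) ranged from 0.831 to 6.64 FPKM in Control, where a retained-intron transcript of nearly equal length (ENSMUST00000159082) ranged from 0.257 to 8.91 FPKM. In the Control mice with the lowest values of the former, 1.02 and 0.831 FPKM, the latter was highest, at 8.91 and 5.17 FPKM, while the gene's sum was 12.2 and 8.44 FPKM. The mt-Atp8 RNA was at 3076 FPKM in 1 Control mouse and at 2184 and 2304 FPKM in 2 Ang II mice, and under 1 FPKM in the other 12.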
